A study of Mus musculus with 47 samples.

Results

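Recovery for 4 weeks after chronic cuprizone was examined in mouse cortex by comparing 3 libraries at 12+4 weeks with 3 libraries at 12 weeks, out of 15 cortex libraries and 47 libraries in the whole series. Members were chosen by label alone, as the libraries whose tissue was brain cortex and whose treatment period was either 12 weeks or 12 weeks with 4 weeks of recovery, and every gene of these libraries was considered. The 12+4 weeks mice had received cuprizone in the chow for 12 weeks and normal chow for 4 weeks, and the 12 weeks mice had received cuprizone for 12 weeks with no recovery. Naive mice on normal chow, labelled 8 months old, served as background, and later groups had 8 or 12 weeks of recovery. All mice were wild-type C57BL/6, and the cortex was microdissected after perfusion with saline. At 12+4 weeks there were 2 females and 1 male, and the same at 12 weeks. Mice at 12+4 weeks were older than mice at 12 weeks by the length of their recovery, so age and recovery cannot be told apart. The labels do not say that each library came from a separate mouse, and p-values therefore measure the spread between these libraries.

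Oligodendrocytes (OLs) are the glia that wrap axons in myelin, a membrane rich in cholesterol and galactolipids and held together by proteins such as myelin basic protein. Cuprizone is a copper chelator that injures mature OLs, with loss of myelin and activation of microglia and astrocytes, and its withdrawal permits OL progenitor cells to form new OLs. Cells under mitochondrial, amino acid or protein folding stress phosphorylate the translation factor eIF2α, which favours translation of the transcription factors ATF4 and ATF5. This integrated stress response induces genes for amino acid transport, one-carbon metabolism and secreted stress signals.

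The libraries held 14047937, 14874045 and 14625139 recovered reads at 12+4 weeks, against 18822927, 16868996 and 6966127 at 12 weeks. Replicate 3 at 12 weeks was thus the shallowest of the 6, and list counts that moved most without it are given both ways. Differences are given as log2 12+4 weeks minus 12 weeks, with the standard error, on the deposited variance-stabilised scale, which understates the change of genes with few reads. Levels of single genes are given as normalised reads, that is, reads divided by the relative size of the library, in the order of replicates 1, 2 and 3. They compare 1 gene between libraries and are not scaled by gene length. Sex-linked genes matched the labelled sex in 6 of 6 libraries. The 18 markers of cortical excitatory neurons and layers summed to between 88002 and 97247 normalised reads at 12+4 weeks and between 85131 and 94021 at 12 weeks. The 12 striatal markers, which would come from tissue below the cortex, summed to between 25506 and 32906 reads at 12+4 weeks, between 28708 and 38300 at 12 weeks and between 5859 and 31093 in naive cortex.

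Few single genes passed the test after 4 weeks of recovery. Of 17054 genes tested 1 rose and 4 fell at 12+4 weeks compared with 12 weeks (limma on the values of all 15 cortex libraries, 2-sided, Benjamini-Hochberg adjusted p below 0.05), which is 0.0293% of the genes tested, or 0.00586% higher and 0.0235% lower. The unadjusted p was below 0.05 for 3.91% of genes, 305 higher and 362 lower (1.79% and 2.12%), and 51.6% of all differences were above 0. All 3 libraries at 12+4 weeks lay above all 3 at 12 weeks for 11.4% of genes, and below them for 8.96%. Without replicate 3 at 12 weeks these shares were 16.4% and 14.2%. They are the background for all counts of list members without overlap given below. Leaving out single libraries left 2 calls without 12 weeks replicate 2 or 3, 3 calls without 12+4 weeks replicate 1, and 1 call without 12+4 weeks replicate 2 or 3. A fit of the recovered reads, chosen after seeing the data, left 1 call (limma voom), and a fit of only the 6 libraries also left 1.

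*Atf5*, the stress-induced transcription factor, had the smallest p of all genes. It had 376, 357 and 385 normalised reads at 12+4 weeks, against 911, 941 and 1071 at 12 weeks, and between 351 and 410 in 4 naive libraries. The 12 weeks libraries were all above the others, and those at 12+4 weeks lay within the naive range. *Atf5* fell by 1.31 ± 0.11 on the log2 scale (limma, n = 3 and 3, adjusted p = 6.69e-05). The call held in 21 of 23 alternative analyses, including every one that left out a library and the fit of recovered reads. It was lost in the 2 with a term for replicate number in the 6 libraries (limma, adjusted p = 0.106 and 0.139). In GRCm38 the gene lies on the minus strand of chromosome 7, from 44812256 to 44816658, and overlaps *Nup62* and *Il4i1* on the opposite strand.

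Of the other genes that fell, 2 are known parts of the same stress response. *Trib3* encodes a pseudokinase that dampens ATF4 signalling, and it had 13.9, 9.42 and 11.2 normalised reads at 12+4 weeks, against 32.2, 59.6 and 53 at 12 weeks. No library of one group reached the other, and naive cortex held 13 to 24.4 reads. *Trib3* fell by 1.04 ± 0.16 on the log2 scale (limma, adjusted p = 0.0382). *Gdf15*, a secreted stress cytokine that acts on feeding through a hindbrain receptor, had few reads outside the 12 weeks group. Its libraries held 1, 0 and 0 reads at 12+4 weeks, against 22, 9 and 6 reads at 12 weeks. Relative to depth its reads were 37.4 times as frequent at 12 weeks as at 12+4 weeks, with a 95% exact interval of 6.31 to 1517 that covers counting error only. *Gdf15* fell by 1.04 ± 0.14 on the log2 scale (limma, adjusted p = 0.0190).

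*Cyb5r2*, which encodes a cytochrome b5 reductase, had 7.93, 6.60 and 0.937 normalised reads at 12+4 weeks, against 27.0, 33.5 and 47.1 at 12 weeks, and 1.78 to 6.56 in naive cortex. Again the groups did not overlap, and *Cyb5r2* fell by 1.21 ± 0.17 on the log2 scale (limma, adjusted p = 0.0294). The single gene that rose was *Ttc36*, which encodes a tetratricopeptide repeat protein. It was represented by 3, 4 and 6 reads at 12+4 weeks and by none in the 3 libraries at 12 weeks, so that it was at least 4.29-fold higher at 12+4 weeks when 3 reads over the group are taken as the limit of a count of 0. Its log2 difference was 0.70 ± 0.10 (limma, adjusted p = 0.0294), and naive cortex held 0.872 to 2.79 normalised reads. *Ttc36* therefore rests on 13 reads in all. In GRCm38 these 4 genes lie on minus strands, *Trib3* on chromosome 2 from 152337422 to 152344032, *Gdf15* on chromosome 8 from 70629393 to 70632456, *Cyb5r2* on chromosome 7 from 107748455 to 107758032, where it overlaps *Ppfibp2* on the opposite strand, and *Ttc36* on chromosome 9 from 44799397 to 44803072, where it overlaps *Gm48702*. The use of strand in counting is not given in the sources used here.

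These 4 calls were less firm than that of *Atf5*. Over the alternatives *Trib3* kept its call in 9 of 23, *Cyb5r2* in 14 of 23, *Gdf15* in 12 of 20 and *Ttc36* in 11 of 21. All 4 were lost in the voom fit of recovered reads without library weights and in the fit of only the 6 libraries. *Trib3* was also lost with sex as a covariate (adjusted p = 0.0639) and with the length and GC correction (0.0729). *Gdf15* was not past the threshold without 12 weeks replicate 1 (adjusted p = 0.0664) or 3 (0.108), or without 12+4 weeks replicate 2 (0.146) or 3 (0.153). *Cyb5r2* was not past it without 12 weeks replicate 2 (0.182) or 3 (0.178), or without 12+4 weeks replicate 2 (0.131) or 3 (0.153). For *Trib3* the adjusted p was 0.107 to 0.298 without any single library other than 12 weeks replicate 1, and for *Ttc36* it was 0.0700 to 0.270 without any single one of the 6. No alternative turned the direction of any of the 5 genes. All p-values are from limma with Benjamini-Hochberg adjustment over all genes.

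**Figure D1:**
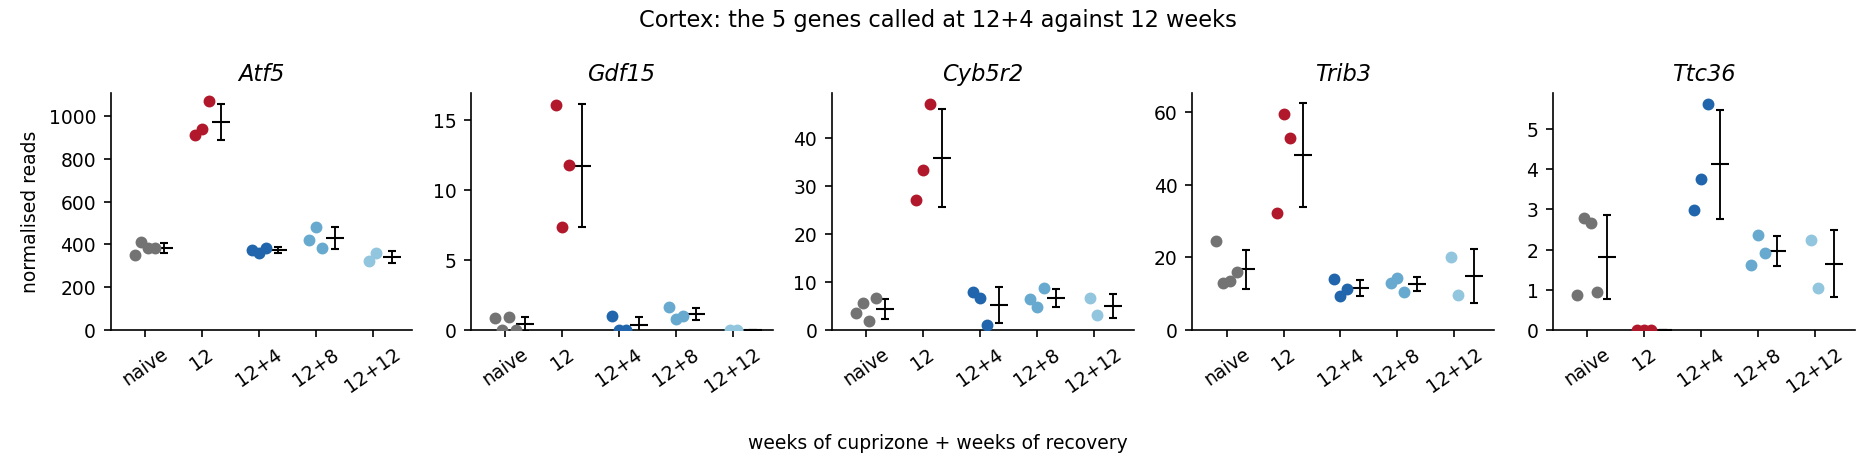
Normalised reads per library (vertical axes, linear, from 0) of the 5 genes that passed the test, by weeks of cuprizone plus weeks of recovery, with the mean and SD of each group in black (n = 4 naive, 3 at 12, 12+4 and 12+8 weeks, 2 at 12+12 weeks). *Atf5* lies between 911 and 1071 reads at 12 weeks and between 357 and 385 at 12+4 weeks, and *Ttc36* is at 0 in all 3 libraries at 12 weeks.

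Stress-induced genes are often bound by ATF4 and its partners at a composite element, so the promoters of the 4 genes that fell are shown. The sequences are RefSeq windows of 300 bases on GRCm38.p6, 250 before and 50 from the transcription start, written along the gene's own minus strand, with the most upstream start where a gene has several. They are *Trib3* at chr2:152344011-152344310, *Cyb5r2* at chr7:107757983-107758282, *Atf5* at chr7:44816609-44816908 and *Gdf15* at chr8:70632407-70632706. Capitals mark the core of the C/EBP-ATF response element, searched as TGATGNAA on both strands, which reads TTNCATCA on the other strand.
Trib3: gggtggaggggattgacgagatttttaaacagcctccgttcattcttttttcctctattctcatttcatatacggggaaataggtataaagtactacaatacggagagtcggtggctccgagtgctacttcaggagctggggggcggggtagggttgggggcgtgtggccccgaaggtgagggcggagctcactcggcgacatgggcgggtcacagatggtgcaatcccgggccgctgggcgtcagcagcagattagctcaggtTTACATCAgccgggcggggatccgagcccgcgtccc
Cyb5r2: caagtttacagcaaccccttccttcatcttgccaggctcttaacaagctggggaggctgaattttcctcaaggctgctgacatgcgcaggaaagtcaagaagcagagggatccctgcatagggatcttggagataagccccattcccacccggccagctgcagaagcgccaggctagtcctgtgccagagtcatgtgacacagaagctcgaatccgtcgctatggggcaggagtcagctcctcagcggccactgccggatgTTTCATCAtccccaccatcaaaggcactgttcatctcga
Atf5: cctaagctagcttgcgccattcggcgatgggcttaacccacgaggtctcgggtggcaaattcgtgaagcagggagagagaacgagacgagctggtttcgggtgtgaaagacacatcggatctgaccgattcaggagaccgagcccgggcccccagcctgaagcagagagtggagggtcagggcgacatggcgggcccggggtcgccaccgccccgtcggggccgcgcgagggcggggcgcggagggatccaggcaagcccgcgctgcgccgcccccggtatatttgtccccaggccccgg
Gdf15: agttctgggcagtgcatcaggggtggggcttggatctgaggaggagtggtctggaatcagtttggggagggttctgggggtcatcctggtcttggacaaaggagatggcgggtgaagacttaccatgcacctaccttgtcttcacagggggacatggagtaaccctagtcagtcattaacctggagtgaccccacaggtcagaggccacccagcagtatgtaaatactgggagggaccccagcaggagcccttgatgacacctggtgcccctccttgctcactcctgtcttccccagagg
The core occurred in the windows of *Trib3*, 15 to 22 bases past the RefSeq start, and *Cyb5r2*, 12 to 19 bases past the start, both on the strand opposite to the gene. For *Trib3* the RefSeq start and the core both lie upstream of the gene's start in the GENCODE positions given above. The core was not found in the windows of *Atf5* or *Gdf15*. Of 32851 such windows of all genes 3.97% held it, as did 4.51% of 27025 genes. Among 23 members of the integrated stress response list with a window, 10 held it, *Nupr1*, *Chac1*, *Asns* and *Atf3* among them. A match is a description of the letters only.

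The wider list of integrated stress response targets moved little beyond its leading genes. Of 29 members tested (*Fgf21* was not), 3 fell and none rose, and 7 had an unadjusted p below 0.05, all lower at 12+4 weeks. In 8 members every library at 12+4 weeks lay below those at 12 weeks, and in 1 above, beside 8.96% and 11.4% of all genes. The median difference was −0.09, beside 0.01 over all genes tested, and it was −0.17 without 12 weeks replicate 1 and −0.05 without 12 weeks replicate 2. Members that missed the threshold included *Nupr1*, a stress-induced chromatin protein, at −0.86, *Ddit3*, which encodes CHOP, at −0.28, and *Ppp1r15a*, which encodes the phosphatase subunit GADD34, at −0.28. Asparagine synthetase (*Asns*) was at 0.00, the cystine transporter gene *Slc7a11* at 0.07 and *Atf4* itself at 0.10, all 3 with overlap between the groups.

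An amino acid transporter gene, *Slc7a5*, and genes of mitochondrial one-carbon metabolism contributed the next members. The other amino acid transporter genes of the stress response list overlapped between the groups. They were *Slc3a2* at −0.12, *Slc7a1* at 0.03, *Slc7a3* at −0.03 and *Slc7a11* at 0.07. *Slc7a5*, the large neutral amino acid transporter, had 1243, 1266 and 1083 normalised reads at 12+4 weeks, against 1656, 1777 and 1803 at 12 weeks. Its groups did not overlap, but it was not past the threshold (−0.53 ± 0.13, limma, adjusted p = 0.587). *Mthfd2*, the mitochondrial methylenetetrahydrofolate dehydrogenase, had 133, 99.0 and 112 reads at 12+4 weeks, against 167, 259 and 161 at 12 weeks (−0.62 ± 0.15, adjusted p = 0.588). *Mthfd1l* and *Aldh1l2*, further enzymes of the mitochondrial folate pathway, differed by −0.45 and −0.41, likewise without overlap. The 13 members of the list of serine, one-carbon and proline synthesis had a median of −0.05. Of these 3 were lower and 0 higher without overlap, beside 8.96% and 11.4% of all genes. Without 12 weeks replicate 3 the median was −0.10, with 4 lower and 1 higher, beside 14.2% and 16.4%. The cytosolic serine enzymes *Phgdh* and *Psat1* were at −0.11 and −0.03. *Cdkn1a*, the cell cycle inhibitor p21, had 341, 360 and 404 reads at 12+4 weeks, against 746, 607 and 648 at 12 weeks (−0.80 ± 0.23, adjusted p = 0.813).

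Myelin genes were higher at 12+4 weeks as a group, although none passed the test singly. Of 36 genes of mature OLs and myelin, 31 had a positive difference and 26 were higher without overlap between the groups, beside 11.4% of all genes, and 2 were lower without overlap. At an unadjusted p below 0.05 there were 14 higher members and 1 lower, *Gjc3* at −0.36. The median difference was 0.27, beside 0.01 over all genes, and it was 0.26 without 12 weeks replicate 3 and 0.31 after correction for transcript length and GC content. The summed reads of the list were 115854 to 121444 at 12+4 weeks, against 94346 to 99559 at 12 weeks and 102036 to 132433 in naive cortex. In whole tissue, fewer cells of a type and less RNA per cell cannot be told apart.

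*Fa2h* had the smallest p of the list. It encodes the fatty acid hydroxylase that supplies hydroxylated galactolipids, and it had 638, 661 and 619 normalised reads at 12+4 weeks, against 422, 345 and 295 at 12 weeks. Naive cortex held 491 to 545, so every library at 12+4 weeks was above all 4 naive ones and every library at 12 weeks below them. The difference of 0.81 ± 0.13 narrowly missed the threshold (limma, adjusted p = 0.0614) and was past it without 12 weeks replicate 1 (adjusted p = 0.0325), whereas without any other of the 6 libraries the adjusted p was 0.257 to 0.462. *Ugt8a*, the galactosyltransferase that makes the same class of lipids, was at 0.88.

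*Mal*, a raft protein of compact myelin, had 4479, 4377 and 4513 reads at 12+4 weeks, against 2965, 2474 and 2526 at 12 weeks and 3198 to 3845 in naive cortex. The groups were well apart, with a difference of 0.74 ± 0.17 (limma, adjusted p = 0.520). *Car2*, the OL carbonic anhydrase, had 2582, 2807 and 2869 reads at 12+4 weeks, against 2021, 1944 and 2023 at 12 weeks (0.46 ± 0.09, adjusted p = 0.272).

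Not all myelin genes stood as far apart. *Mbp*, which encodes myelin basic protein, had 41901, 44385 and 41620 reads at 12+4 weeks, against 36743, 35083 and 35665 at 12 weeks, a difference of 0.25 ± 0.17. *Mag*, the adhesion molecule of the innermost myelin wrap, had 2663, 2635 and 2759 reads at 12+4 weeks, against 2510, 2563 and 2473 at 12 weeks, a difference of only 0.09 ± 0.14. Both were without overlap, yet far from the threshold (limma, adjusted p = 1.00 for each). Further structural members lay between these and *Mal*, with the tight junction gene *Cldn11* at 0.54, *Ermn* at 0.44, *Mog* at 0.39 and *Mobp* at 0.33, while the cytosolic deacetylase *Sirt2* was at −0.11.

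Among other genes with the smallest p in the higher direction, several are known from OLs. *Tmem98*, a membrane protein that inhibits self-cleavage of the OL transcription factor MYRF, had 145, 155 and 141 reads at 12+4 weeks, against 89.2, 72.6 and 92.3 at 12 weeks (0.63 ± 0.12, limma, adjusted p = 0.234). *S1pr5*, the sphingosine-1-phosphate receptor of mature OLs, had 222, 247 and 262 reads at 12+4 weeks, against 173, 93.8 and 134 at 12 weeks (0.77 ± 0.16, adjusted p = 0.284). *Adamtsl4*, a secreted ADAMTS-like protein, had 152, 162 and 177 reads at 12+4 weeks, against 101, 75.9 and 68.7 at 12 weeks (0.80 ± 0.16, adjusted p = 0.262). In these genes too the libraries did not overlap. Values of *Nfe2l3*, a transcription factor of the NRF family, were 77.3, 82.0 and 75.9 at 12+4 weeks, against 48.2, 26.1 and 37.3 at 12 weeks (0.73 ± 0.15, adjusted p = 0.272).

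Genes of earlier OL stages had smaller medians. Of 14 genes of newly formed OLs, 0 were higher and 3 lower without overlap, beside 11.4% and 8.96% of all genes. Without 12 weeks replicate 3 there were 0 and 5, beside 16.4% and 14.2%. The median difference was −0.06 with all libraries. *Bcas1*, a marker of OLs that begin to myelinate, had 3539, 3979 and 3592 reads at 12+4 weeks, against 5343, 6051 and 4822 at 12 weeks (−0.54 ± 0.17, limma, adjusted p = 0.997). *Myrf*, the transcription factor that drives myelin genes, had 1121, 1146 and 1215 reads at 12+4 weeks, against 1369, 1399 and 1251 at 12 weeks (−0.20 ± 0.17, adjusted p = 1.00). The long noncoding RNA *9630013A20Rik*, transcribed antisense to *Pcdh17*, had 24.8, 21.7 and 21.5 reads at 12+4 weeks, against 40.9, 36.7 and 66.8 at 12 weeks and 5.59 to 16.6 in naive cortex. Other members of this stage differed little, with *Enpp6* and *Gpr17* at 0.05 each. The 15 OL progenitor genes had a median of 0.11, or 0.06 without 12 weeks replicate 3. Of them 3 were higher and 1 lower without overlap, beside 11.4% and 8.96% of all genes. The lower one was *Olig2*, the lineage transcription factor, with 402, 406 and 459 reads at 12+4 weeks, against 584, 605 and 521 at 12 weeks (−0.40 ± 0.14, adjusted p = 1.00), and the progenitor receptor gene *Pdgfra* was at 0.11.

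Cholesterol synthesis, which supplies the main lipid of myelin, was higher as a list. Of 23 genes 18 had a positive difference, and 11 were higher and 0 lower without overlap, beside 11.4% and 8.96% of all genes. An unadjusted p below 0.05 held for 6, all higher. None passed the test, and the median difference was 0.23. *Hmgcs1*, an early synthase of the pathway, was at 0.30. *Sqle*, squalene epoxidase, had 922, 966 and 1091 reads at 12+4 weeks, against 756, 853 and 772 at 12 weeks. *Cyp51*, lanosterol demethylase, had 1117, 1218 and 1308 reads at 12+4 weeks, against 906, 1024 and 1037 at 12 weeks, and 1268 to 1462 in naive cortex. Both differed without overlap, by 0.31 ± 0.11 and 0.29 ± 0.11 (limma, adjusted p = 1.00 each). The median of the list was 0.16 without 12+4 weeks replicate 3.

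**Figure D2:**
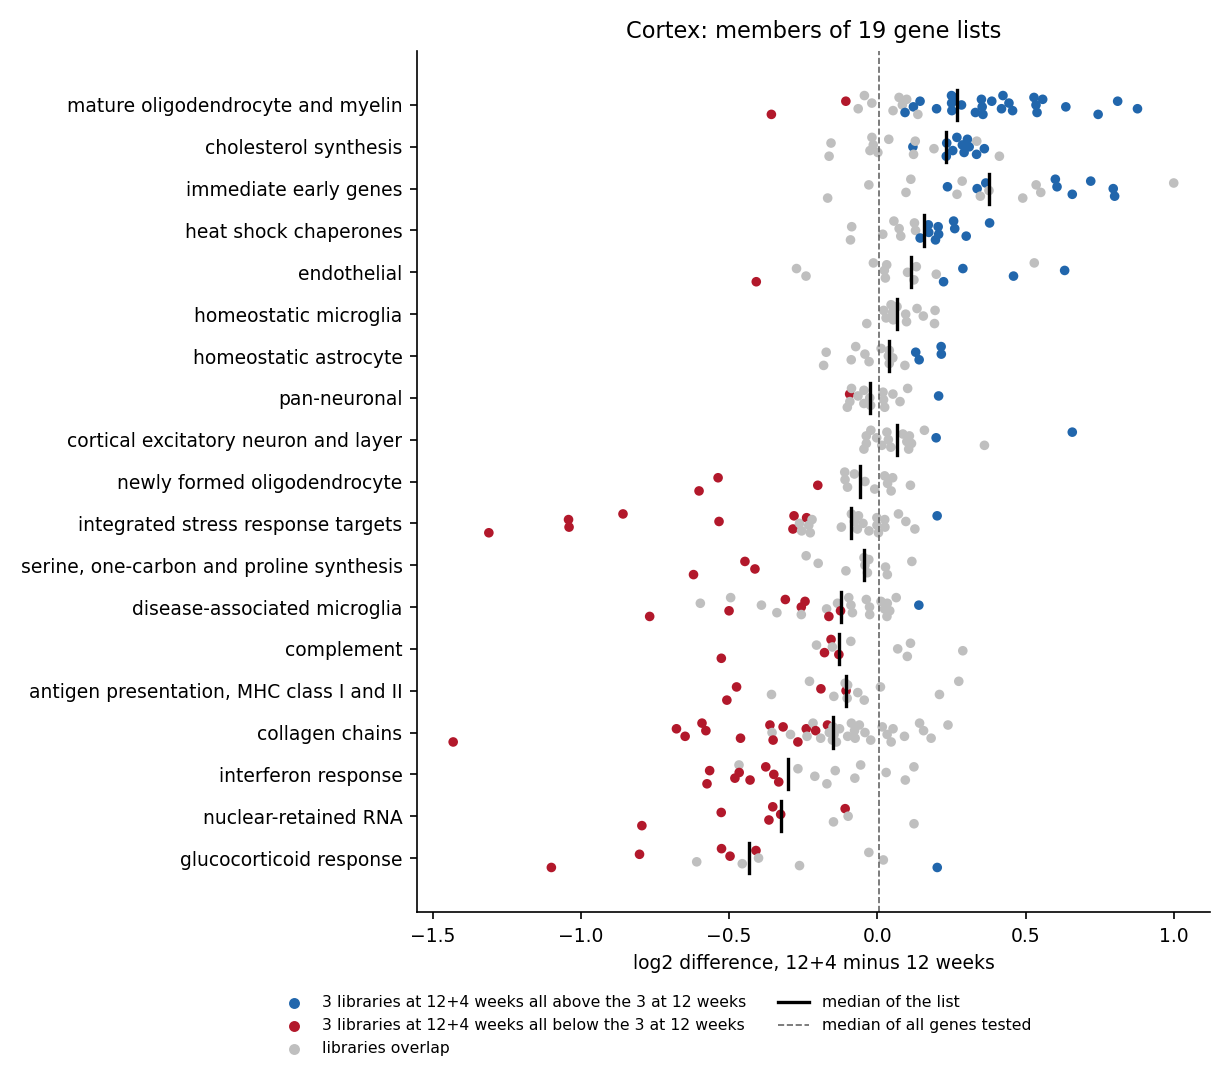
Log2 difference of each list member, 12+4 minus 12 weeks (horizontal axis), in 19 gene lists (rows), with points coloured by whether all 3 libraries at 12+4 weeks lie above (blue) or below (red) the 3 at 12 weeks, or overlap (grey). The median of the myelin list is 0.27 and that of the interferon list −0.30, beside 0.01 over all genes tested (dashed line).

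No gene of the microglial lists passed the test. All 13 genes of homeostatic microglia overlapped between the groups, with a median of 0.07. *P2ry12*, the purinergic receptor of resting microglia, had 506, 549 and 490 reads at 12+4 weeks, against 441, 404 and 497 at 12 weeks. Without 12 weeks replicate 3, 3 of the 13 were higher without overlap, beside 16.4% of all genes. Of 27 genes of disease-associated microglia, the state taken on around damaged myelin, 7 were lower and 1 higher without overlap. The shares of all genes were 8.96% and 11.4%. An unadjusted p below 0.05 held for 5 of the 27, all lower. The median was −0.12, with a range of −0.16 to −0.07 over the alternatives.

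*Itgax*, which encodes the integrin CD11c, led that list, with 32.7, 14.1 and 19.7 reads at 12+4 weeks, against 62.9, 42.4 and 57 at 12 weeks. Naive cortex held 2.79 to 6.97, so all libraries at 12+4 weeks lay between the other groups (−0.77 ± 0.15 against 12 weeks, limma, adjusted p = 0.203). *Clec7a*, the phagocytic receptor dectin-1, had 39.6, 16 and 15 reads at 12+4 weeks, against 43.1, 38.3 and 57 at 12 weeks and 4.68 to 6.52 in naive cortex. In this gene, too, 12+4 weeks replicate 1 was the highest of its group, and it overlapped the 12 weeks libraries (−0.60 ± 0.18, adjusted p = 0.916). *Cst7*, which encodes the protease inhibitor cystatin F, had 14.9, 8.48 and 7.49 reads at 12+4 weeks, against 17.5, 13.9 and 15.7 at 12 weeks. *Ccl6*, a chemokine of these cells, had 25.8, 17.9 and 22.5 reads at 12+4 weeks, against 41.7, 30.2 and 53 at 12 weeks. The lysosomal and lipid genes of the list were close to 0, with *Ctsd* at −0.12, *Apoe* at −0.09, *Lpl* at −0.08 and *Ctsb* at −0.04.

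Complement and antigen presentation genes had medians below 0 without any call. Of 11 complement genes 4 were lower and 0 higher without overlap, beside 8.96% and 11.4% of all genes. Their median of −0.13 was −0.06 after correction for transcript length and GC content. *C4b*, a component of the classical pathway, had 555, 314 and 410 reads at 12+4 weeks, against 603, 612 and 625 at 12 weeks and 187 to 408 in naive cortex (−0.53 ± 0.27, limma, adjusted p = 1.00). Of 15 antigen presentation genes 4 were lower and 0 higher without overlap (median −0.11), beside the same shares of all genes. Without 12 weeks replicate 3 there were 8 and 1, beside 14.2% and 16.4%. *H2-K1*, a class I heavy chain, had 300, 362 and 362 reads at 12+4 weeks, against 498, 584 and 422 at 12 weeks (−0.51 ± 0.13, adjusted p = 0.679). Reads of class I genes can be split between near-identical relatives, so the value of *H2-K1* is uncertain.

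Interferon-induced genes had the lowest median of the immune lists. Of 18 members 8 were lower and 0 higher without overlap, beside 8.96% and 11.4% of all genes. Without 12 weeks replicate 3 there were 13 and 1, beside 14.2% and 16.4%. The median was −0.30, or −0.20 without 12 weeks replicate 2. *Bst2*, which encodes the virus-tethering protein tetherin, had 21.8, 33.9 and 19.7 reads at 12+4 weeks, against 46.8, 50.6 and 49.1 at 12 weeks. *Irf7*, the transcription factor that amplifies interferon production, had 35.7, 17.9 and 28.1 reads at 12+4 weeks, against 51.9, 53 and 49.1 at 12 weeks and 27.9 to 54.3 in naive cortex. Neither passed the test (−0.57 ± 0.15 and −0.57 ± 0.19, limma, adjusted p = 0.646 and 1.00), and the naive range of *Irf7* held all 3 libraries at 12 weeks and 2 of the 3 at 12+4 weeks. Of 16 chemokine and cytokine genes 13 were tested, with a median of −0.08, and *Ccl5* had 0, 0 and 0.937 reads at 12+4 weeks, against 3.65, 8.98 and 1.96 at 12 weeks.

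Astrocyte genes were mixed. Of 19 reactive astrocyte genes 2 were higher and 2 lower without overlap, beside 11.4% and 8.96% of all genes, with a median of 0.12. Without 12 weeks replicate 3 there were 3 higher and 4 lower and the median was 0.03. The lower ones were *Gfap*, the intermediate filament of astrocytes, at −0.53, and *Serpina3n*, a serine protease inhibitor. *Serpina3n* had 199, 168 and 185 reads at 12+4 weeks, against 266, 280 and 287 at 12 weeks, but the naive libraries ran from 137 to 428 (−0.52 ± 0.27, limma, adjusted p = 1.00). Of 16 homeostatic astrocyte genes 4 were higher without overlap and 0 lower (median 0.04). Without 12 weeks replicate 3 there were 4 and 2, beside 16.4% and 14.2% of all genes (median −0.01). Among the higher ones was the gap junction gene *Gja1*, with 2841, 3004 and 3105 reads at 12+4 weeks, against 2668, 2542 and 2483 at 12 weeks.

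Immediate early genes, which neurons switch on within minutes of activity, had a median of 0.38 on the deposited values of all libraries, the highest of the lists. Without 12 weeks replicate 1 it was 0.22, and the myelin list then had the highest. Of 21 members 19 had a positive difference, and 9 were higher and 0 lower without overlap, beside 11.4% and 8.96% of all genes. An unadjusted p below 0.05 held for 5, all higher. *Nr4a3*, an orphan nuclear receptor, had 772, 808 and 1227 reads at 12+4 weeks, against 409, 602 and 548 at 12 weeks and 688 to 1018 in naive cortex (0.80 ± 0.24, limma, adjusted p = 0.9). *Nr4a2* had 995, 1022 and 1230 reads at 12+4 weeks, against 714, 561 and 754 at 12 weeks (0.66 ± 0.20, adjusted p = 0.917). *Arc*, the synaptic gene most used to mark active neurons, was at 1.00 with overlap, *Npas4* at 0.72 and *Fos* at 0.55. The median level of the list varied within groups, from 0.10 to 0.37 log2 units around the mean of all 15 libraries at 12+4 weeks, against −0.59 to 0.14 at 12 weeks and −0.58 to 0.29 in naive cortex. Of 16 general neuronal genes 1 was higher and 1 lower without overlap, with a median of −0.02.

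Chaperones of the heat shock response had 10 of 18 members higher and 0 lower without overlap (median 0.16). The shares of all genes were 11.4% and 8.96%. *Hsph1* had 5159, 5462 and 5293 reads at 12+4 weeks, against 4302, 4524 and 4094 at 12 weeks and 5647 to 6489 in naive cortex (0.30 ± 0.10, limma, adjusted p = 0.995). *Hspa1b*, an inducible HSP70 gene with a near-identical neighbour among which reads can be split, had 53.5, 53.7 and 62.8 reads at 12+4 weeks, against 44.6, 35.1 and 33.4 at 12 weeks. Each library at 12+4 weeks was thus above those at 12 weeks and, for *Hsph1*, below all naive ones.

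No endothelial or collagen gene passed the test. Of 16 endothelial genes 4 were higher and 1 lower without overlap, beside 11.4% and 8.96% of all genes (median 0.11). Without 12 weeks replicate 3 there were 4 and 3, beside 16.4% and 14.2% of all genes (median 0.03). *Cldn5*, the tight junction protein of the blood-brain barrier, had 536, 584 and 506 reads at 12+4 weeks, against 320, 357 and 338 at 12 weeks and 297 to 741 in naive cortex (0.63 ± 0.21, limma, adjusted p = 1.00). *Tek*, the angiopoietin receptor, had 314, 345 and 283 reads at 12+4 weeks, against 209, 242 and 208 at 12 weeks. The glucose transporter gene *Slc2a1* was the lower member, at −0.41. Of 40 collagen chains 13 were lower and 0 higher without overlap, beside 8.96% and 11.4% of all genes. An unadjusted p below 0.05 held for 5, all lower. The median was −0.15, or −0.10 without 12+4 weeks replicate 2.

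*Col5a3*, which encodes a fibrillar chain of type V collagen, had 63.4, 37.7 and 61.8 reads at 12+4 weeks, against 199, 218 and 165 at 12 weeks, and 23.4 to 101 in naive cortex. Its difference of −1.43 ± 0.27 was the lowest of the collagens and not past the threshold (limma, adjusted p = 0.179). *Col11a1* had 190, 146 and 224 reads at 12+4 weeks, against 314, 277 and 354 at 12 weeks (−0.68 ± 0.27, adjusted p = 1.00), with naive libraries from 125 to 361. The abundant fibrillar chains *Col1a1* and *Col3a1* were at 0.02 and 0.03.

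**Figure D3:**
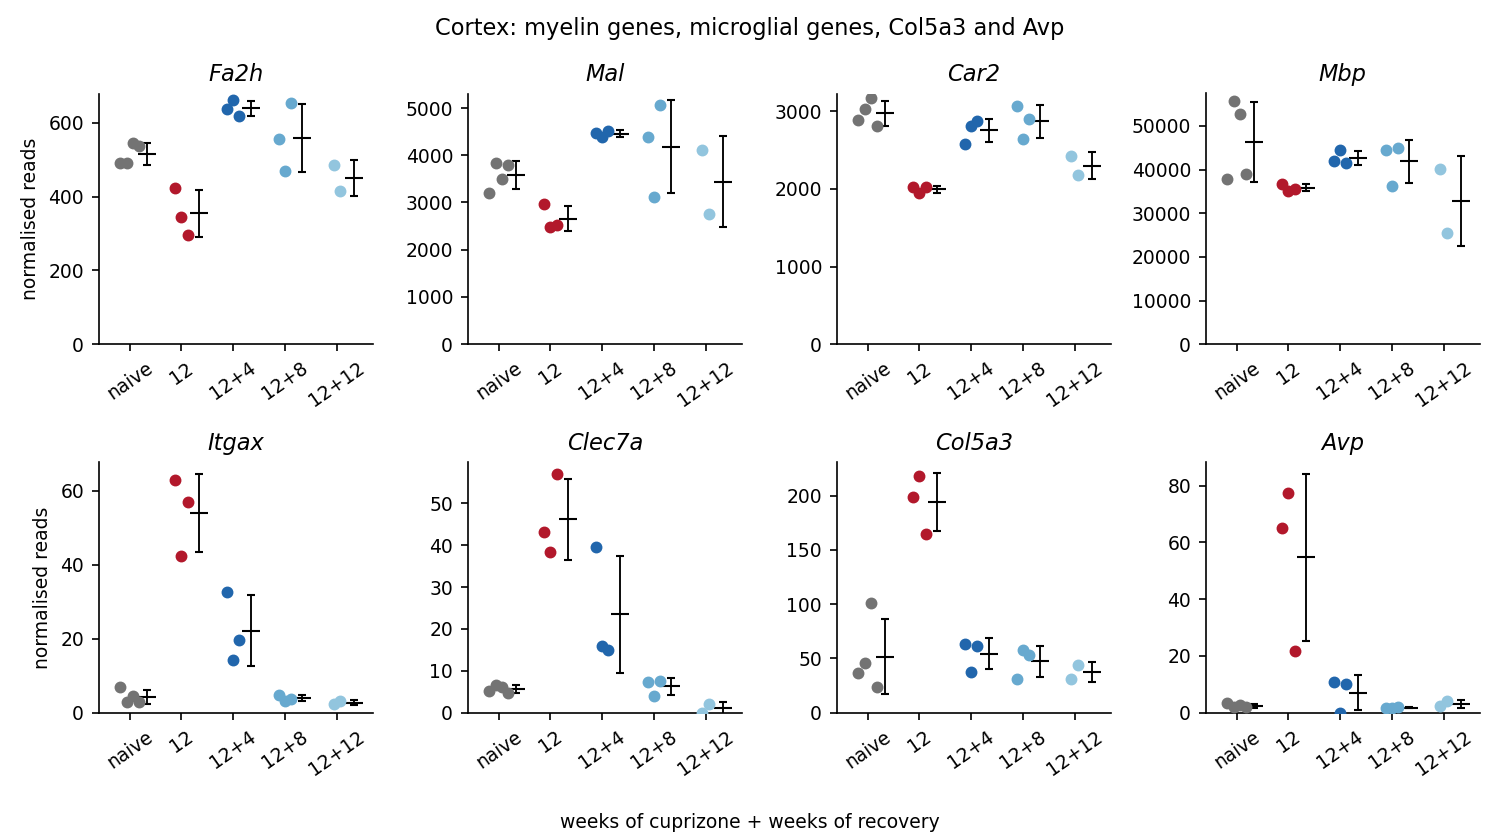
Normalised reads per library (vertical axes, linear, from 0) of 4 myelin genes, 2 microglial genes, *Col5a3* and *Avp*, by weeks of cuprizone plus weeks of recovery, with the mean and SD of each group in black (n = 4 naive, 3 at 12, 12+4 and 12+8 weeks, 2 at 12+12 weeks). *Fa2h* is at 619 to 661 reads at 12+4 weeks and 295 to 422 at 12 weeks, and *Itgax* is at 14.1 to 32.7 reads at 12+4 weeks and 42.4 to 62.9 at 12 weeks.

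*Avp*, the vasopressin gene, stood out among neuropeptides, with 10.9, 0 and 10.3 reads at 12+4 weeks, against 65.0, 77.5 and 21.6 at 12 weeks and 1.86 to 3.49 in naive cortex. The groups did not overlap, but replicate 3 at 12 weeks was well below the other 2. *Avp* was not past the threshold (−1.51 ± 0.28, limma, adjusted p = 0.179), while without that library it was (adjusted p = 0.0350). Without any other of the 6 libraries the adjusted p of *Avp* was 0.189 to 0.741, and the smallest difference was −1.14, without 12+4 weeks replicate 2. Vasopressin is made mainly by hypothalamic neurons. *Iqck*, an IQ motif gene, had 17.8, 17.9 and 18.7 reads at 12+4 weeks, against 35.1, 30.2 and 29.5 at 12 weeks (−0.41 ± 0.09, adjusted p = 0.426), and it overlaps 3 annotated genes on the opposite strand. *Rab44*, a large Rab GTPase gene, had 0 reads in the 3 libraries at 12+4 weeks, against 2, 7 and 4 at 12 weeks, at least 4.38-fold lower at 12+4 weeks with 3 reads over the group as the limit of a count of 0 (−0.74 ± 0.15, adjusted p = 0.262).

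Glucocorticoid-responsive genes had the lowest median of the lists, −0.43, except without 12 weeks replicate 1, where it was −0.32 and that of nuclear-retained RNAs −0.41. Of 12 members 5 were lower and 1 higher without overlap, beside 8.96% and 11.4% of all genes. An unadjusted p below 0.05 held for 3, all lower. Besides *Cdkn1a*, these were *Tsc22d3*, which encodes the leucine zipper protein GILZ, and *Map3k6*. *Tsc22d3* had 1080, 1250 and 1549 reads at 12+4 weeks, against 2011, 1848 and 1619 at 12 weeks (−0.50 ± 0.18, limma, adjusted p = 1.00). Among 16 circadian genes 2 were higher and 6 lower without overlap (median −0.06), beside 11.4% and 8.96% of all genes. *Ciart*, a repressor of the clock, had 177, 196 and 166 reads at 12+4 weeks, against 256, 295 and 275 at 12 weeks (−0.54 ± 0.15, adjusted p = 0.804), *Per2* was at −0.28 and *Arntl*, which encodes BMAL1, at 0.25.

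Nuclear-retained RNAs, which bear on RNA quality and the share of nuclear RNA, had a median of −0.33. Of 9 such RNAs 6 were lower and 0 higher without overlap, beside 8.96% and 11.4% of all genes. *Malat1* had 13583, 12355 and 10937 reads at 12+4 weeks, against 16540, 25698 and 22603 at 12 weeks and 10368 to 23854 in naive cortex. Across genes the difference rose with transcript length (Spearman correlation 0.209) and fell with GC content (−0.274), a description across genes that are not independent replicates. After correction for both, the medians were −0.41 for these RNAs, 0.31 for myelin, 0.44 for immediate early genes, −0.28 for interferon-induced genes and −0.43 for glucocorticoid-responsive genes, while antigen presentation was at −0.07 and complement, as above, closer to 0 than before. The part of RNA quality in these differences was not tested beyond this correction.

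The other lists lay near the median of all genes. Median differences were −0.03 for 37 respiratory chain genes, −0.04 for 55 ribosomal protein genes, −0.07 for 29 cell cycle genes, 0.04 for 18 copper and metallothionein genes and 0.03 for 15 Nrf2 targets. *Mt2*, a metallothionein that binds copper and zinc, had 756, 615 and 757 reads at 12+4 weeks, against 945, 929 and 945 at 12 weeks (−0.40 ± 0.17, limma, adjusted p = 1.00). Striatal, hippocampal and choroid plexus markers had medians of −0.11, 0.10 and 0.01, with 1, 1 and 0 members without overlap, or 1, 5 and 3 without 12 weeks replicate 3, and the striatal median ranged from −0.21 to 0.03 over the alternatives. Of 12 blood cell genes 3 were tested, and the 9 present in the table summed to at most 13.1 normalised reads in any library of either group. The haemoglobin genes of the list were not among those tested, and *Hba-a2* had no read in either group. The sum therefore cannot show how much blood the tissue held.

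Placing both groups beside naive cortex shows where the levels stood. At 12 weeks 11 genes differed from naive, 10 higher and 1 lower (0.0645% of genes tested, 0.0586% higher and 0.00586% lower), and the count was 7 without 12 weeks replicate 2 and 3 without 12 weeks replicate 3, and 7, 6 and 5 without naive replicate 2, 3 or 4. The higher ones included *Atf5*, *Gdf15*, *Cyb5r2*, *Itgax*, *Clec7a*, *Col5a3*, *Avp*, *Iqck* and *9630013A20Rik*, and the lower one was *Car2*. At 12+4 weeks 0 genes differed from naive (limma), with 844 at an unadjusted p below 0.05 (4.95%), and 0 by the fit of recovered reads. These comparisons share libraries with the one above and are no independent evidence. The myelin list had a median difference from naive of 0.05 at 12+4 weeks and −0.25 at 12 weeks, and cholesterol synthesis one of −0.04 at 12+4 weeks and −0.25 at 12 weeks. For immediate early genes it was 0.18 at 12+4 weeks and −0.22 at 12 weeks, and for disease-associated microglia 0.07 at 12+4 weeks and 0.17 at 12 weeks. Other lists lay further from naive at 12+4 weeks than at 12 weeks. Glucocorticoid-responsive genes were at −0.28 at 12+4 weeks and 0.19 at 12 weeks, and interferon-induced genes at −0.20 and 0.09. Ribosomal protein genes were at −0.25 and −0.20, and respiratory chain genes at −0.23 and −0.20. *Itgax* was still 0.85 above naive at 12+4 weeks and *Clec7a* 0.75, neither past the threshold. The labels give an age for the naive mice only. For its gait tests the study matched mice at 12 weeks with naive mice younger than the 8 months labelled here. Age and treatment therefore cannot be told apart in the comparisons with naive.

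**Figure D4:**
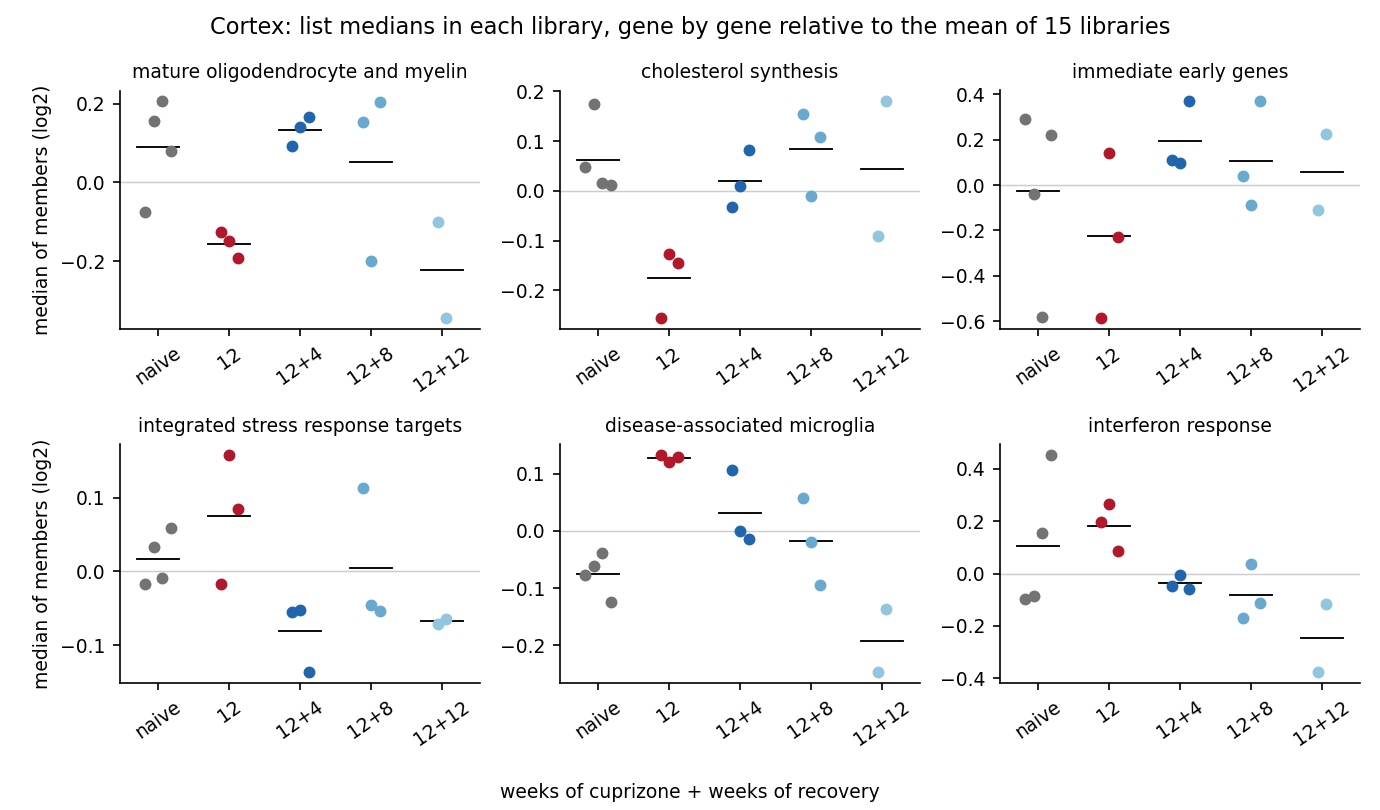
Median level of 6 gene lists in each of 15 cortex libraries (vertical axes, log2, each gene relative to its mean over the 15 libraries), by weeks of cuprizone plus weeks of recovery, with a line at the mean of each group. The 3 libraries at 12+4 weeks lie above the 3 at 12 weeks in the myelin and cholesterol panels, and below them in the microglial and interferon panels.

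Later groups are given as values only. *Atf5* averaged 430 ± 49.7 normalised reads at 12+8 weeks (SD, n = 3) and 340 at 12+12 weeks (n = 2), and *Trib3* averaged 12.6 and 14.8 reads in the same groups. *Itgax* averaged 3.95 and 2.70 reads there and *Clec7a* 6.31 and 1.05, in or below the naive range. Of the myelin genes, *Mal* averaged 4184 reads at 12+8 weeks and 3437 at 12+12 weeks. Replicate 1 at 12+12 weeks held 6569406 reads, and leaving it out kept 5 calls in the main comparison.

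The same comparison was made in 2 other regions, in 1 fit of all 40 chronic libraries. No gene differed between the cortex and the hippocampus in its change from 12 to 12+4 weeks (0 of 17054, limma, 707 or 4.15% at an unadjusted p below 0.05), and none between the cortex and the corpus callosum (0 of 17054, 1681 or 9.86% at an unadjusted p below 0.05). With quantile normalization 36 genes differed between the cortex and the corpus callosum, 6 with a higher and 30 with a lower value in cortex. By the study's methods the cortex was sequenced on another instrument and with shorter reads than the other regions, so region and sequencing run cannot be told apart. Without corpus callosum 12+4 weeks replicate 2 the count against the corpus callosum was 3. Hippocampal libraries carried mixed sex-linked signals in 4 of 6 libraries of these groups and callosal ones in 1 of 4, against 0 of 6 in the cortex. Without the mixed hippocampal libraries a single library remains in each of these groups, too few to tell whether they affect this count.

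Cortex values and their standard errors are from the fit of cortex libraries only. Values of the other regions, and differences between regions, are from the fit of all chronic libraries. The standard errors of cortex and of the other regions are therefore not comparable. Among stress genes, *Atf5* stood at −1.31 ± 0.11 in cortex, −1.07 ± 0.25 in hippocampus and −1.04 ± 0.30 in corpus callosum. Cortex minus hippocampus was −0.24 ± 0.35 (limma, adjusted p = 0.998). *Cdkn1a* was at −0.80 in cortex, −1.14 in hippocampus and −1.06 in corpus callosum. Myelin genes had smaller values in cortex than in the other regions, with no difference past the threshold in the fit of deposited values. *Mal* was at 0.74 ± 0.17 in cortex, 1.17 ± 0.22 in hippocampus and 1.93 ± 0.27 in corpus callosum, and cortex minus corpus callosum was −1.19 ± 0.35 (adjusted p = 0.374). *Mbp* was at 0.25, 0.90 and 1.37 in the same regions. Over the 36 myelin genes the median was 0.27 in cortex, 0.63 in hippocampus and 1.12 in corpus callosum. Markers of other cells also moved in those regions. Choroid plexus and ependymal markers had a median of 1.27 in hippocampus and 0.46 in corpus callosum, against 0.01 in cortex. In corpus callosum general neuronal genes were at −0.26 and homeostatic microglia at 0.40, against −0.02 and 0.07 in cortex. The part of tissue make-up in the regional values was not tested. *Avp* was at −0.11 ± 0.28 in hippocampus and 0.40 ± 0.35 in corpus callosum, and *Ttc36* at 0.07 and 0.05. Cortex minus corpus callosum was −1.91 ± 0.45 for *Avp* (adjusted p = 0.313) and 0.65 ± 0.18 for *Ttc36* (adjusted p = 0.374).

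**Figure D5:**
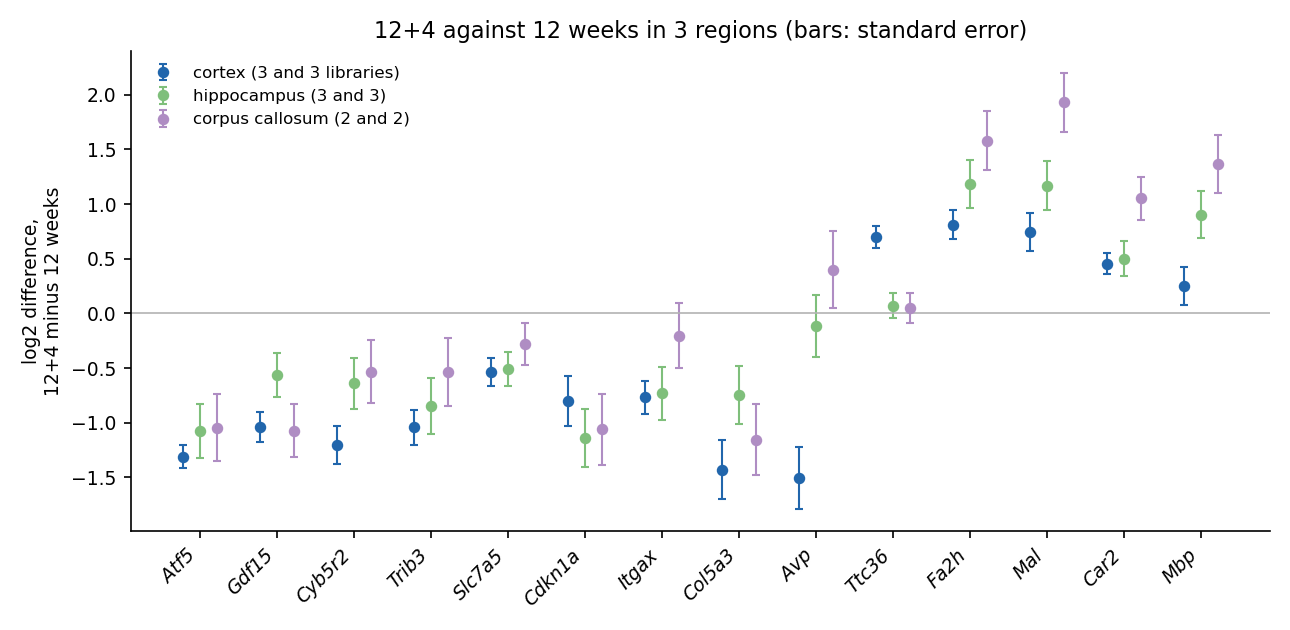
Log2 difference, 12+4 minus 12 weeks (vertical axis), of 14 genes in cortex, hippocampus and corpus callosum, with bars for the standard error. Cortex bars are from the fit of cortex libraries only, and the others from the fit of all chronic libraries. Their lengths are therefore not comparable. *Atf5* lies at −1.31, −1.07 and −1.04 in the 3 regions, and *Mal* at 0.74, 1.17 and 1.93.

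A last list held 8 genes that the study names in its text among those it found shared by the 3 regions, and so covers only part of them. It was chosen on these samples and is no independent evidence. The study counted genes that changed at any of its recovery times by DESeq2, whereas only 12+4 weeks is compared here, with limma. In cortex 4 of the 8 were higher and 2 lower without overlap, with a median of −0.06 and no call. The lower ones were *Itgax* and *9630013A20Rik*, and the higher ones *Hspa1b*, *Noxred1* (0.15) and the noncoding RNAs *A230009B12Rik* and *A330015K06Rik*. *A230009B12Rik* had 12.9, 17.0 and 24.4 reads at 12+4 weeks, against 6.58, 5.71 and 0 at 12 weeks (0.85 ± 0.20, limma, adjusted p = 0.587), and *A330015K06Rik* had 10.9, 16.0 and 12.2 reads at 12+4 weeks, against 5.85, 1.63 and 3.93 at 12 weeks (0.57 ± 0.14, adjusted p = 0.646). Both are annotated as antisense to a coding gene.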

How the data were processed

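RNA of mouse cortex was sequenced by the authors as messenger RNA libraries, with the reads aligned by TopHat2 2.0.13 to GRCm38/mm10 and normalised with DESeq2, whose version, like the read counter, its annotation and its use of strand, is not given in the sources used here. The labels name a stranded kit and 150-base paired reads, whereas the methods name 40-base reads for the cortex. The deposited log2 values are DESeq2's variance-stabilised values, centred by the authors per gene on a value shared by 3 regions. Whole reads were recovered from the cortex values: every one of 21061 rows had a single solution and 100% of values came within 0.01 read of a whole number. Size factors came with them, and library totals are those recovered reads.

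Genes at the lowest value in more than 10 of 40 libraries were left out (3980), as were 27 names turned into dates or numbers, leaving 17054. Groups were fitted with limma 3.58.1 (R 4.3.3, lmFit and eBayes without trend) on 15 cortex libraries in 5 groups, with no covariate, and called at an adjusted p below 0.05. Regions were compared in 1 fit of 40 libraries. The deposited unit is log2, so the tests were planned without count models, and these were not run on the recovered reads either. Recovered reads were tested with limma voom. The test was checked on simulated data. Alternatives changed the filter, variance model, library weights, normalization, sex, replicate block, groups in the fit, length and GC content (known for 97.1% of genes), and single libraries. Tables and figures used Python 3.11.15, pandas 2.3.3, scipy 1.17.1 and matplotlib 3.10.9, and gene positions GENCODE M21.

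The groups, the 38 gene lists and the tests were chosen with earlier results of these data known. Genes named are those called, up to 10 in each direction with the smallest p, the leading members of each list, *Mbp*, *Mag* and *Mal*. Some results under this rule are not reported here. Members given with a difference only, and the genes whose motif is named, were singled out after their values were seen.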

Additional observations from a re-analysis of the deposited data

Results flagged for a closer look

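Of 46 genes whose 4 naive cortex libraries were checked for a library far from the others, 1 had one, where chance gives about 1 in 20. For *Adamtsl4* naive replicate 4 had 127 normalised reads, against 164 to 170 in the other 3, and on the deposited log2 scale its gap was 0.877 of the whole range, above Dixon's critical value for 4 libraries. Both groups of 3 libraries in the main comparison were too small for this check. It covered genes named in the text and not the list medians, in which naive replicate 3 stood apart for striatal and hippocampal markers.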

How the results depend on the processing

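The comparison of 12+4 with 12 weeks gave 5 called genes. It gave 102 with library weights (46 higher and 56 lower, from weights whose fit stopped before convergence), 9 in 1 fit of all 40 chronic libraries, 1 with only the groups compared, and 1 to 5 when 1 library was left out. Among analyses chosen after seeing the data it gave 1 with recovered reads in voom, 70 with recovered reads in voom and library weights, 1 in voom for genes with a mean of at least 10 reads, and 2 on the deposited values with that minimum. The labels do not say that replicate numbers pair the libraries. Same-numbered libraries deviated from their group means with correlations of 0.037, 0.097 and 0.140. Libraries of different numbers had −0.138 to 0.044, the highest for 12+4 weeks replicate 1 with 12 weeks replicate 2. Replicate 3 was the male in both groups, so pairing and sex cannot be told apart there. With the replicate block, fitted to the 6 libraries only, 0 genes were called, alone or with the length and GC correction. The unadjusted p was then below 0.05 for 2014 and 1800 genes. For 12 weeks against naive the count of 11 became 18 with library weights, 0 with the replicate block, 4 with only the groups compared, 163 in 1 fit of 40 libraries, 26 in voom with library weights, and 3 to 16 when 1 library was left out. For 12+4 weeks against naive, 40 libraries in 1 fit gave 2 calls in place of 0. For the cortex minus the corpus callosum, quantile normalization gave 36 in place of 0, and leaving out 1 library 0 to 3. Of 1046 values of single genes under alternatives 0 changed sign, 54 gained a call and 43 lost one, and of 872 list medians 62 moved by more than 1 SD between libraries. Depth limits genes of few reads, such as *Ttc36* and *Gdf15*. The cause of these changes was not tested.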
